A study of Mus musculus with 51 samples.

Results

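The immunity-related GTPases (IRGs) of the mouse were followed in bulk RNA-seq of tumors and cultured cancer cells in which the ubiquitin-activating enzyme UBA1 had been lowered, raised or inhibited. The members were the genes named Igtp, Irgm1, Irgm2, Iigp1, Tgtp1, Tgtp2 and Ifi47, chosen by symbol and not by their values, which made 7 of the 40077 genes measured. All 7 members had counts and passed the filter on low counts in every comparison, although several stood at 0 counts in cells without interferon.

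IRG proteins are large GTPases that cells make in response to interferons, above all to IFN-γ, and that act inside the cell against bacteria and parasites living in a vacuole. Irgm1, Irgm2 and Igtp (also called Irgm3) are regulators that sit on the cell's own membranes and hold the other members in their inactive, GDP-bound form. Iigp1, Tgtp1, Tgtp2 and Ifi47 are effectors, which gather on the vacuole of a parasite such as Toxoplasma gondii and break its membrane. Their genes are used as markers of interferon signaling in many cell types, tumor cells included.

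The 51 libraries fell into 16 groups, with 35 of them made from tumors grown under the skin and the other 16 from Myc-CaP cells in culture. Myc-CaP is a prostate cancer line grown in male FVB mice, and B16-BL6 is a melanoma line grown in female C57BL/6 mice, which were 6 to 8 weeks old and carried a tumor on both flanks. The labels do not name the mouse of a tumor, so tumors of a group may share a mouse. Each tumor was counted as a replicate, and p-values in tumors measure the spread between tumors, which may not be that between mice. The sgRNA tumors were Myc-CaP with a control guide (sgNC, n = 3) or a guide against Uba1 (sgUba1, n = 7) and B16-BL6 with sgNC (n = 3) or sgUba1 (n = 4). Cells of the sgRNA groups carried a lentiviral CRISPR vector, and the Uba1 sublines came from single cells with a partial loss of the protein. The labels do not say which of the study's Uba1 guides a library carries. The other Myc-CaP tumors carried an empty lentiviral vector (EV, n = 3) or a vector overexpressing Uba1 (Uba1 OE, n = 4), or grew in mice given vehicle (n = 6) or TAK-243 (n = 5), a small-molecule inhibitor of UBA1, at 25 mg/kg intravenously with 2 doses per week.

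The cultured cells formed a pair of experiments with 2 libraries in each group. In the sgRNA experiment, sgNC and sgUba1 cells were left without cytokine or given IFN-γ. In the TAK-243 experiment, Myc-CaP cells without a guide were left as control or given TAK-243 at 50 nM, IFN-γ, or both. IFN-γ was used at 1 ng/mL, for 18 h. Nothing in the labels says whether the 2 libraries of a group came from separate cultures, so p-values in cells measure the spread between these libraries, which may be technical. No interferon gene of the 5 examined (Ifng, Ifnb1, Ifna4, Ifnl2 and Ifnl3) had a count in any cell library.

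Depth ran from 8651963 counts in the shallowest EV tumor to 38032284 counts in the deepest sgRNA cell library. Uba1 RNA fell in B16-BL6 sgUba1 tumors (log2 fold change −0.92 ± 0.07 (SE), adjusted p = 0.00029) and in sgUba1 cells (−0.87 ± 0.05 without and −1.13 ± 0.05 with IFN-γ), and rose in Uba1 OE tumors (1.27 ± 0.09). In the Myc-CaP tumors labelled sgUba1, Uba1 stood at 197 to 211 CPM (counts scaled to the size of each library) in tumors 1 to 3 and at 361 to 383 CPM in tumors 4 to 7, which was above the 320 to 337 CPM of the 3 sgNC tumors. Results on these 7 tumors are therefore given by their label, and also for tumors 1 to 3 alone.

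The genes lie in clusters. By the GENCODE annotation of GRCm38, Irgm1 (ENSMUSG00000046879.7) occupies chr11:48861968-48871683 on the minus strand. It is followed on the same chromosome by Tgtp1 (ENSMUSG00000078922.9) at chr11:48985327-48994172 and Tgtp2 (ENSMUSG00000078921.3) at chr11:49057194-49064206, both on the minus strand, and by Ifi47 (ENSMUSG00000078920.3) at chr11:49076587-49096974 on the plus strand. Farther along, Igtp (ENSMUSG00000078853.8) at chr11:58199556-58207591 and Irgm2 (ENSMUSG00000069874.7) at chr11:58199618-58222782 overlap on the plus strand. Iigp1 (ENSMUSG00000054072.12) lies apart from the rest at chr18:60376027-60392634.

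Some of these genes cannot be counted fully apart from each other. The coding sequences of Tgtp1 and Tgtp2, each 1245 bases long, were 99.7% identical, so their counts depend on how the authors' program shared reads between them. The next most alike pair was Igtp and Irgm2 at 70.8%, and the least alike was Igtp and Iigp1 at 57.0%. Irgm2 shares 162 exonic bases with Igtp, which is 4.39% of its exonic length, and Ifi47 shares 111 exonic bases with Olfr56, 4.49% of its exonic length.

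The stretches before the start sites of the members are shown because the members rose together with IFN-γ in every cell background, as given below. RefSeq (GRCm38.p6) held a promoter window, from 250 bases before to 50 after the start, for 6 of the 7 members. Each window was searched on both strands for the core of the interferon-stimulated response element bound by IRF factors (GAAA, any 2 bases, GAAA) and for the gamma-activated site (TTC, any 3 bases, GAA). The windows of Igtp, Irgm1, Irgm2, Tgtp1 and Tgtp2 held a match to the former, and all of these but Irgm1 also held the latter. Capitals mark the matches in the lines that follow, which read 5′ to 3′ on the strand of the gene.
Igtp: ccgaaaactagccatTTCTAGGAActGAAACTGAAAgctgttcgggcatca
Irgm2: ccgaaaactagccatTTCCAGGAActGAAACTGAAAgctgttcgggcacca
Tgtp1: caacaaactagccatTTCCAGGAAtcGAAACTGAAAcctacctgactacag
Tgtp2: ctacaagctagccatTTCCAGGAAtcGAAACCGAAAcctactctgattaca
Irgm1: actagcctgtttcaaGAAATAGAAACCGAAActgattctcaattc

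The Igtp stretch is chr11:58199496-58199546, that of Irgm2 chr11:58214887-58214937, that of Tgtp1 chr11:48992299-48992349, that of Tgtp2 chr11:49064258-49064308 and that of Irgm1 chr11:48871421-48871465. The Irgm1 stretch lies before the RefSeq start but inside an exon of a longer GENCODE transcript that has no coding part. Those of Irgm2 and Tgtp1 also lie inside the GENCODE bounds of their genes given above. Distances below are counted from the RefSeq start, which differs from the outer end of these genes. In Igtp, Irgm2, Tgtp1 and Tgtp2 the same order was seen, with the gamma-activated site just before the response element core, and the latter began 34, 64, 77 and 70 bases before the start, respectively. Irgm1 had 2 overlapping matches to the response element core, the first of which began 30 bases before the start, and Ifi47 had no match to either motif in its window. Of 32851 promoter windows of the same length, 3.44% held the response element core, 8.30% held the gamma-activated site and 0.454% held both. A match of letters is a description, and binding was not measured.

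In cells without cytokine, Irgm1 was the member with nearly all of the family's RNA. Compared per length in TPM (transcripts scaled to gene length and library size), Irgm1 stood at 14.3 ± 0.09 (SD, n = 2) in control cells and at 7.10 ± 0.58 in sgNC cells, and no other member had a mean above 0.976 TPM in any of the 4 groups without IFN-γ. Irgm1 made up 87.9% to 98.1% of the summed TPM of the 7 members there. Iigp1 and Tgtp2 had 0 counts in all 8 libraries without IFN-γ, which allows up to 3 counts per library, or 0.0846 to 0.212 CPM by group.

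IFN-γ raised the whole family. In control cells, all 7 members passed the test as higher (edgeR quasi-likelihood test with Benjamini-Hochberg adjustment, threshold 0.05), against 19.6% of the genes tested, and in TAK-243-treated cells all 7 passed against 5.76%. The same count of 7 of 7 was reached in sgNC cells, against 3.03% of genes, and in sgUba1 cells, against 1.20%. The median log2 fold change of the members was 6.0 in control cells and 5.55 in sgNC cells, where the median over all genes tested was 0.04 in both. The groups with and without IFN-γ did not overlap for any member in any of these 4 comparisons, as was the case in this direction for 36.7% of all genes in control, 25.6% in TAK-243-treated, 32.8% in sgNC and 27.0% in sgUba1 cells. In sgNC cells the calls of Iigp1 and Ifi47 rest on few counts and were lost without either sgNC IFN-γ library (adjusted p from 0.080 to 0.15), which left 5 members called. In TAK-243-treated cells that of Ifi47 was lost without either TAK-243 library or without TAK-243 plus IFN-γ replicate 2 (adjusted p from 0.053 to 0.066).

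Among the regulators, Irgm1 was the member with the highest level before IFN-γ and the smallest fold after it. It had 19.3 and 19.1 CPM in the control libraries and 67.0 and 64.8 CPM with IFN-γ, or 1.78 ± 0.08 on the log2 scale (adjusted p = 1.8e-16). In sgNC cells it went from 9.03 and 9.90 CPM to 20.7 and 21.3 CPM (1.15 ± 0.08, adjusted p = 5.1e-05). Both libraries with IFN-γ lay above both without it, by a wide margin in each experiment.

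Igtp was near 0 before IFN-γ. Control cells held 8 and 0 counts of it, or 0.511 and 0 CPM, and cells with IFN-γ held 33.2 and 33.3 CPM (log2 fold change 6.99 ± 0.26, adjusted p = 1.8e-17). In sgNC cells, 1 and 2 counts became 75 and 99, a ratio of 50.1 in CPM with a 95% exact counting interval of 16.9 to 246. Irgm2 moved alike, from 0.192 and 0.312 to 16.2 and 17.1 CPM in control cells (6.0 ± 0.28, adjusted p = 5.2e-16) and by a ratio of 32.9 (13.8 to 102) in sgNC cells. These intervals, and the floors of 3 counts, cover counting error only.

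The effectors started from 0 or close to it. Iigp1 had 0 counts in both control libraries and 6.69 and 5.67 CPM with IFN-γ, which was at least 32.6-fold higher when 0 is replaced by the floor of 3 counts per library. In sgNC cells its IFN-γ level was 0.789 and 0.660 CPM, at least 6.95-fold higher. Tgtp2 was at least 32.1-fold higher in control cells and at least 8.50-fold higher in sgNC cells. Tgtp1 differed from the other effectors in having 35 and 21 counts (2.23 and 1.31 CPM) in control cells before IFN-γ, and it reached 23.2 and 23.8 CPM with it (3.73 ± 0.16, adjusted p = 1.0e-16). Ifi47 had 2 and 3 counts before and 30 and 26 counts after IFN-γ in control cells, a ratio of 11.9 (4.80 to 38).

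Compared per length, the order of the members in IFN-γ-treated control cells was Irgm1 (42.1 ± 0.80 TPM), Igtp (22.7 ± 0.03), Tgtp1 (13.8 ± 1.1), Irgm2 (6.27 ± 0.24), Tgtp2 (2.89 ± 0.41), Iigp1 (2.78 ± 0.36) and Ifi47 (1.70 ± 0.28). The ranges of Tgtp2 (2.60 to 3.18) and Iigp1 (2.53 to 3.04) overlapped, and those of all other neighbours did not. Irgm1 made up 45.3% and 46.0% of the family's TPM there.

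The IFN-γ responses of control and sgNC cells were compared in 1 fit of all 16 cell libraries, an analysis added after seeing the data. The response of control cells was called larger for 1 member. Irgm1 rose by 0.65 ± 0.11 more on the log2 scale in control cells (adjusted p = 0.0020), against 3.79% of genes called in either direction. For Iigp1 and Tgtp2, at 0 before IFN-γ in both, no difference of folds can be formed. Igtp, Irgm2, Tgtp1 and Ifi47 had few or no counts in sgNC cells before IFN-γ, so a missed call does not show an equal response. On log2(TPM + 1), 7 members were called. The summed level of the 7 members with IFN-γ was 153 ± 2.4 CPM in control cells and 31.4 ± 0.63 CPM in sgNC cells, so the 2 experiments differed in the level reached without any change in UBA1. The experiment, the guide vector and the depth change together here and cannot be told apart. The paper describes a Myc-CaP control with the non-targeting guide as a clone, so the subline may differ as well. For this reason sgUba1 and TAK-243 were each compared with their own controls.

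**Figure D1:**
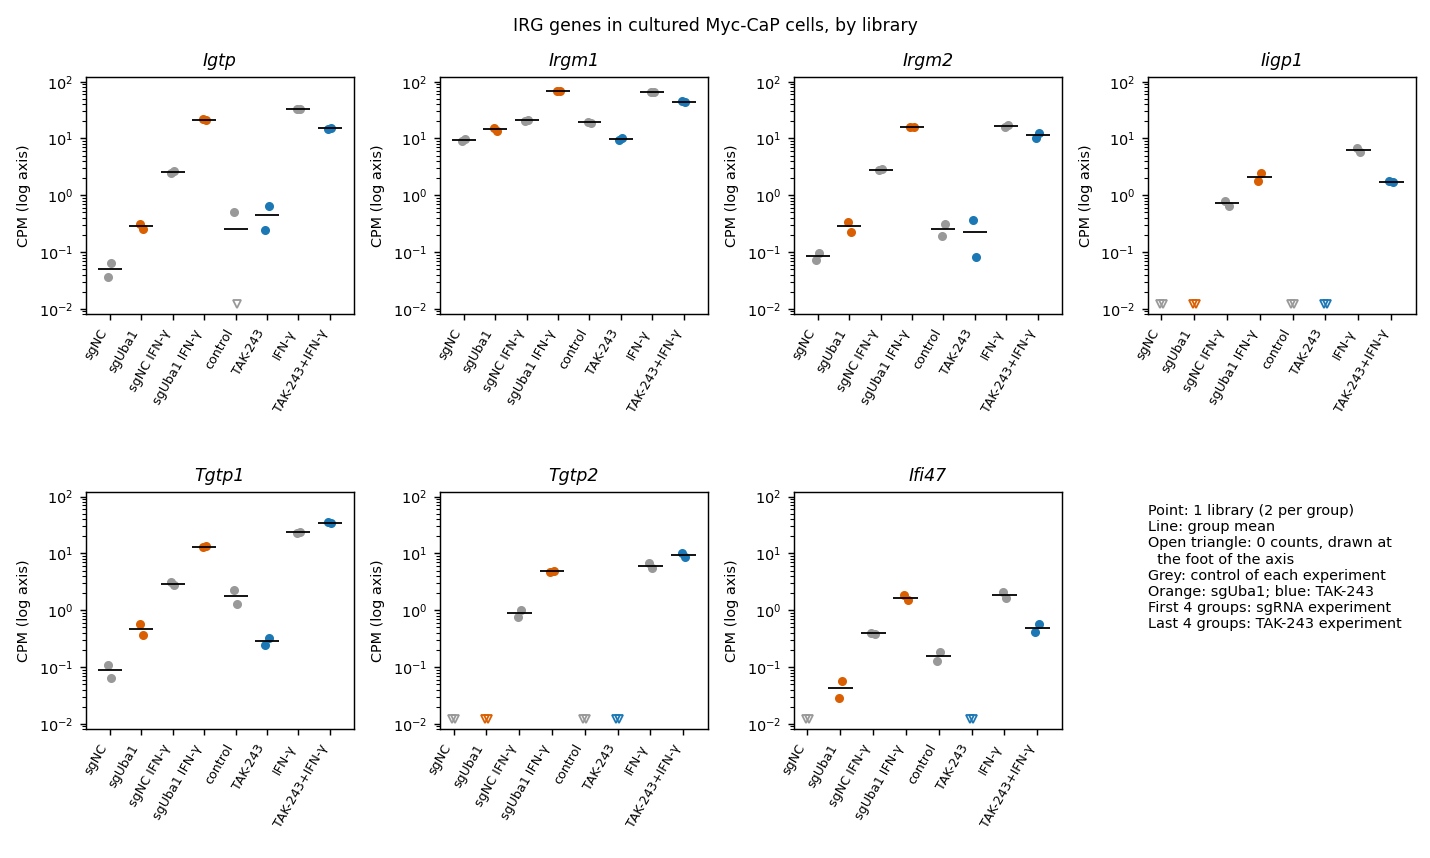
CPM of the 7 IRG genes (log axis, 1 panel per gene) in the 16 cultured Myc-CaP libraries by group, with points for libraries, lines for group means and open triangles at the foot of the axis for 0 counts. All 7 genes stand higher with IFN-γ in each background, and sgUba1 with IFN-γ (orange) lies above sgNC with IFN-γ (grey) for every gene, with Igtp at 21.5 against 2.59 CPM.

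In sgUba1 cells the whole family stood higher with IFN-γ. All 7 members differed from sgNC cells and all were higher, where 39.4% of the genes tested differed in either direction, with a median log2 fold change of 2.17 where that of all genes was 0.01. No member's libraries overlapped between the groups, as was the case for 34.8% of all genes in this direction. The summed level of the family was 128 ± 1.2 CPM in sgUba1 and 31.4 ± 0.63 CPM in sgNC cells with IFN-γ. Since the sublines came from single cells, the loss of Uba1 and the subline cannot be told apart.

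The regulators rose 3.29-fold to 8.25-fold. Igtp had 22.1 and 20.8 CPM in sgUba1 cells and 2.46 and 2.72 CPM in sgNC cells with IFN-γ, which was 3.04 ± 0.11 on the log2 scale (adjusted p = 2.2e-08) and the largest change of the family. Irgm2 had 16.1 and 16 CPM against 2.76 and 2.92 CPM (2.49 ± 0.12, adjusted p = 1.1e-07). Irgm1 had 68.3 and 69.8 CPM against 20.7 and 21.3 CPM (1.72 ± 0.07, adjusted p = 5.1e-08). The 2 libraries of a group were far closer to each other than the groups were, for each of the 3 regulators.

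The effectors rose 2.93-fold to 5.38-fold in the same comparison. Tgtp1 had 12.8 and 13.7 CPM against 3.09 and 2.78 CPM (2.17 ± 0.13, adjusted p = 8.5e-07), and Tgtp2 had 4.71 and 4.94 CPM against 0.756 and 1.02 CPM (2.43 ± 0.23, adjusted p = 4.5e-05). Ifi47 had 1.84 and 1.51 CPM against 0.394 and 0.385 CPM (2.09 ± 0.33, adjusted p = 0.00063). Iigp1 had the smallest difference, with 1.75 and 2.48 CPM against 0.789 and 0.660 CPM (1.55 ± 0.32, adjusted p = 0.0037).

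Part of the difference was present without IFN-γ. In unstimulated cells, 4 of 7 members were higher in sgUba1 than in sgNC, against 16.2% of genes. Irgm1 had 15.6 and 13.8 CPM in sgUba1 and 9.03 and 9.90 CPM in sgNC cells (0.63 ± 0.08, adjusted p = 0.00025). The other 3 calls rest on few counts, since Igtp had 11 and 9 counts against 1 and 2 (ratio 5.43, interval 1.61 to 28.5), Irgm2 12 and 8 against 2 and 3 (3.26, 1.19 to 11.1) and Tgtp1 20 and 13 against 3 and 2 (5.37, 2.08 to 17.6). Of these, Igtp and Irgm2 missed the threshold without sgUba1 replicate 1 (adjusted p = 0.054 and 0.25), which left 2 members called. Irgm2 also missed it without either sgNC library (adjusted p = 0.12 without replicate 1 and 0.090 without replicate 2). Ifi47 was at the floor in both groups, with at most 2 counts, and Iigp1 and Tgtp2 had none.

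Whether IFN-γ acted more strongly in sgUba1 cells was tested as an interaction. Irgm1 rose by 2.23 ± 0.07 with IFN-γ in sgUba1 cells and by 1.15 ± 0.08 in sgNC cells on the log2 scale, a difference of 1.09 ± 0.11 (adjusted p = 0.0013), and it was the 1 member called, against 4.64% of genes. On log2(TPM + 1) and log2(TPM + 0.1) the difference of Irgm1 was 1.04 on both and missed the threshold (adjusted p = 0.050 and 0.081). For Igtp the difference was 0.69 ± 0.81 (adjusted p = 0.76), for Irgm2 0.83 ± 0.62 (0.59) and for Tgtp1 −0.20 ± 0.48 (0.87), with standard errors that reflect the few counts before IFN-γ. For Iigp1 and Tgtp2, at 0 before IFN-γ in both backgrounds, no difference of folds can be formed. The comparisons within an experiment share libraries with each other and are set side by side here, not as separate evidence.

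Compared per length, the family kept its leading members in sgUba1 cells with IFN-γ. Irgm1 stood at 48.6 ± 2.8 TPM, Igtp at 16.3 ± 0.07, Tgtp1 at 8.94 ± 0.83 and Irgm2 at 6.68 ± 0.26, none of which overlapped a neighbour, and Ifi47 (1.57 ± 0.18) and Iigp1 (1.06 ± 0.36) were the lowest. Irgm1 made up 56.3% and 57.0% of the family's TPM, compared with 68.7% and 70.2% in sgNC cells with IFN-γ.

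Inhibition of UBA1 with TAK-243 split the family. With IFN-γ, all 7 members differed between TAK-243-treated and control cells, 5 lower and 2 higher, where 68.2% of all genes differed in either direction. With so large a share of genes called, the number of members called says little. The summed family level was 117 ± 0.65 CPM with TAK-243 plus IFN-γ and 153 ± 2.4 CPM with IFN-γ. In TPM the sums were 94.6 and 92.2, so the fall of the sum was not seen in that unit. These sums include Tgtp1, whose change differed between CPM and TPM, as given below.

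The 5 members that fell were the 3 regulators, Iigp1 and Ifi47. Igtp had 14.8 and 15.3 CPM with TAK-243 plus IFN-γ and 33.2 and 33.3 CPM with IFN-γ (−1.14 ± 0.12, adjusted p = 2.2e-09), although DESeq2 did not call it (adjusted p = 0.20). Irgm1 had 44.9 and 44.0 CPM against 67.0 and 64.8 CPM (−0.57 ± 0.07, adjusted p = 2.2e-08), and Irgm2 10.3 and 12.3 CPM against 16.2 and 17.1 CPM (−0.55 ± 0.14, adjusted p = 0.00092). On log2(TPM + 0.1) neither Igtp nor Irgm2 was called (−0.98 and −0.40, adjusted p = 0.27 and 0.35). Iigp1 fell the most of the members with firm counts, with 1.76 and 1.69 CPM against 6.69 and 5.67 CPM (−1.84 ± 0.28, adjusted p = 1.5e-06). Ifi47 had 6 and 9 counts against 30 and 26 (−1.90 ± 0.50, adjusted p = 0.0013). None of these groups overlapped, as was the case for 41.7% of all genes in this direction.

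The near-identical effectors Tgtp1 and Tgtp2 went the other way. Tgtp1 had 35.5 and 34.2 CPM with TAK-243 plus IFN-γ and 23.2 and 23.8 CPM with IFN-γ (0.57 ± 0.09, adjusted p = 4.6e-06). Tgtp2 had 10.1 and 8.77 CPM against 6.69 and 5.48 CPM (0.63 ± 0.19, adjusted p = 0.0044), a call that was lost without IFN-γ replicate 2 or without TAK-243 plus IFN-γ replicate 1 (adjusted p = 0.073 and 0.072). The groups did not overlap for either gene, as was the case for 41.0% of all genes in this direction. In TPM the difference of Tgtp1 was larger, at 40.7 ± 1.5 with TAK-243 plus IFN-γ and 13.8 ± 1.1 with IFN-γ. By these values it stood above Irgm1 (31.2 ± 0.28) as the leading member. A fixed gene length cancels in a fold between groups. Why the folds of Tgtp1 in CPM and TPM differ was not tested, so its rank in TPM is uncertain.

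**Figure D2:**
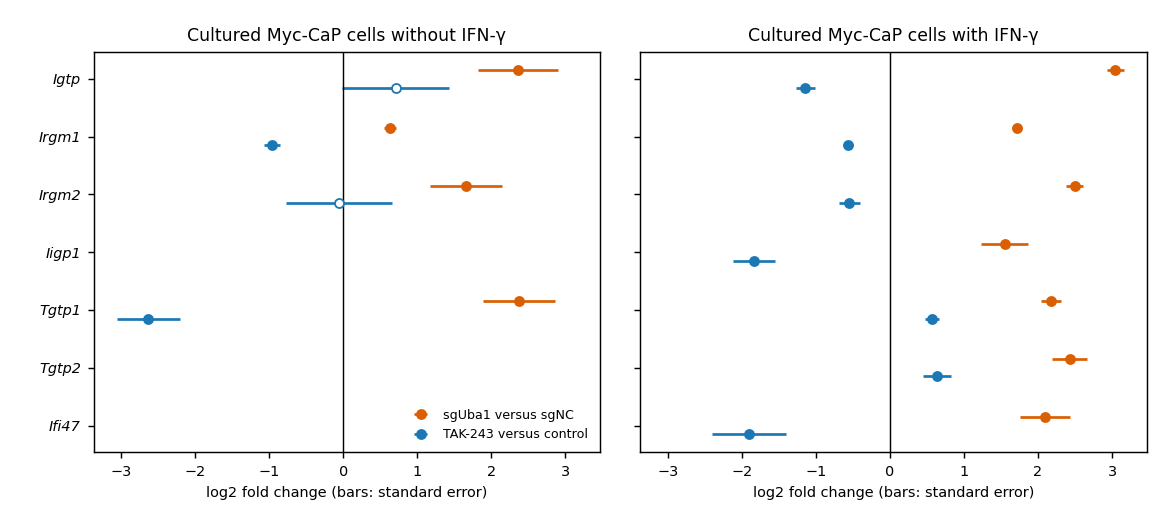
Log2 fold changes of the 7 IRG genes (horizontal axis, bars are standard errors) for sgUba1 versus sgNC (orange) and TAK-243 versus control (blue) in cultured Myc-CaP cells without IFN-γ (left) and with IFN-γ (right), with filled points for adjusted p under 0.05. With IFN-γ the sgUba1 values run from 1.55 to 3.04 and the TAK-243 values from −1.90 to 0.63, and genes at or under 3 counts in both groups are not drawn on the left.

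Without IFN-γ, Irgm1 and Tgtp1 were lower with TAK-243. Of the 7 members, 3 were called lower, which is near the 34.0% of all genes called lower. Irgm1 had 9.57 and 10.2 CPM with TAK-243 and 19.3 and 19.1 CPM in control cells (−0.96 ± 0.10, adjusted p = 2.1e-09). Tgtp1 had 4 and 4 counts against 35 and 21 (−2.63 ± 0.43, adjusted p = 3.2e-06). Ifi47, the third, had 0 counts in both TAK-243 libraries and 2 and 3 in the control libraries, so no fold is given. Igtp (4 and 8 counts against 8 and 0) and Irgm2 (6 and 1 against 3 and 5) overlapped between the groups. Without control replicate 1, which holds all Igtp counts of control cells, Igtp was called higher (5.67, adjusted p = 0.0034), against a group left at 0 counts.

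Tgtp1 was lower with TAK-243 before IFN-γ and higher after it. IFN-γ raised it by 6.93 ± 0.22 on the log2 scale in TAK-243-treated cells and by 3.73 ± 0.16 in control cells. The difference of 3.20 ± 0.43 passed the test (adjusted p = 2.2e-05), where 2.38% of all genes did. On log2(TPM + 1) and log2(TPM + 0.1) it was 2.27 and 3.65 and missed the threshold (adjusted p = 0.056 and 0.060). No other member passed, with Igtp at −1.85 ± 0.75 (adjusted p = 0.22) and Irgm1 at 0.40 ± 0.13 (0.097). Without control replicate 1, Igtp was also called (−6.82, adjusted p = 0.0079).

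The effects of sgUba1 and of TAK-243 under IFN-γ were set against each other in a fit of all 16 cell libraries, also added after seeing the data. The effect of sgUba1 was the higher for all 7 members, against 30.7% of genes. The difference was largest for Igtp (4.20 ± 0.21 on the log2 scale, adjusted p = 2.5e-12) and Ifi47 (4.01 ± 0.55, adjusted p = 5.6e-06). It was smallest for Tgtp1 (1.62 ± 0.17, adjusted p = 7.6e-08), whose difference was 0.19 and did not pass the test on log2(TPM + 1) (adjusted p = 0.43). The experiments differ in their control cells, in the duration of UBA1 loss and in depth, which cannot be told apart from the kind of UBA1 loss.

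The neighbours of the family in the interferon pathway were examined from fixed lists. Among 15 IFN receptors and signaling genes, 9 were higher and 1 lower in sgUba1 than in sgNC cells with IFN-γ. The share of all genes called there, in either direction, was 39.4%. Those higher included Irf8, a transcription factor of the IRF family (1.21 ± 0.21), and Usp18, a brake on type I receptor signaling (2.10 ± 0.65, at most 12 counts). Socs3, a feedback inhibitor of cytokine receptors, was the 1 gene lower (−0.88 ± 0.11). Of the 11 guanylate-binding proteins, GTPases that work beside the IRGs at vacuoles, 3 passed the filter and all 3 were higher, namely Gbp3 (3.19 ± 0.39), Gbp7 (2.90 ± 0.25) and Gbp2 (2.69 ± 0.17). The interaction was called for Irf1, a further factor of the IRF family (0.96 ± 0.09, adjusted p = 0.00089), where 4.64% of all genes were called.

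Under TAK-243 with IFN-γ the same lists were mixed. Of 14 signaling genes tested, 8 were higher and 4 lower, where 68.2% of all genes were called in either direction. Among those lower were Jak2 (−0.52 ± 0.04), a kinase of the IFN-γ receptor, and Ifnar1 (−0.50 ± 0.08), a chain of the type I receptor. Socs1, an inhibitor of JAK kinases, was higher (2.36 ± 0.16), together with Jak1 (1.49 ± 0.03) and Ifngr2 (1.37 ± 0.14). Gbp2 was the 1 guanylate-binding protein of 3 tested that passed, and it was higher (0.51 ± 0.12), in contrast to the fall of the IRG regulators.

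Related IRG-like genes outside the 7 members were read from a list of 11. Under TAK-243 with IFN-γ, 7 were tested, of which 3 were higher and 1 lower, where 68.2% of all genes were called. Gm12185 had 21.4 ± 1.3 CPM with TAK-243 plus IFN-γ and 1.5 ± 0.23 CPM with IFN-γ (3.82 ± 0.21, adjusted p = 2.6e-16). The other 2 higher were 9930111J21Rik2 (1.98 ± 0.12) and 9930111J21Rik1 (1.65 ± 0.28), and Irgq was lower (−0.24 ± 0.09). In sgUba1 against sgNC cells with IFN-γ, 3 of 8 tested were higher and 1 lower, where 39.4% of all genes were called. Those higher were Gm12185 (1.75 ± 0.47), Gm12250, known as Irgb10 (1.16 ± 0.40), and 9930111J21Rik2 (0.81 ± 0.18), and Irgq was lower (−0.28 ± 0.06).

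ATG8 conjugation, the ubiquitin-like system that IRG proteins need to find the right membrane, was read from 11 genes, all tested. With IFN-γ, 1 was higher (Atg5, 0.25 ± 0.06) and 1 lower (Map1lc3a, −1.04 ± 0.15) in sgUba1 cells, where 39.4% of all genes were called. With TAK-243 plus IFN-γ, 7 were higher, led by Atg12 (1.46 ± 0.06), Map1lc3b (1.24 ± 0.04) and Gabarapl2 (1.13 ± 0.05), and 2 were lower, Atg3 (−0.84 ± 0.09) and Atg7 (−0.31 ± 0.12), where 68.2% of all genes were called.

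Some genes of the immune marker lists had counts in the cultures. Ptprc (CD45), by which the paper told immune from malignant cells, had 0 to 3 counts per cell library. That was at most 0.141 CPM, where the tumors had 4.48 to 38.6 CPM. Of 12 T and NK cell markers, Cd3g, Ncr1, Gzmb, Gzma, Klrd1 and Nkg7 had 0 counts in all cell libraries, and the other 6 had counts in control cells. The summed level of the 12 was 2.42 to 8.17 CPM over the cell libraries, which reached into the range of the Uba1 OE tumors (6.15 to 12.0 CPM). Of 12 macrophage and dendritic cell markers, 5 had counts in control cells, the F4/80 gene Adgre1 and the complement gene C1qb had none in any cell library, and the summed level was 3.51 to 9.42 CPM. Krt8 and Krt18, epithelial keratins, were low in cells and higher in sgUba1 than in sgNC cells with IFN-γ (2.10 ± 0.14 and 2.84 ± 0.46). Epcam, a further epithelial marker, had 0 counts in control cells.

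In tumors the members were expressed in every library, the lowest value being 3 counts of Ifi47 in a Uba1 OE tumor. Tumor cells and the host's immune and stromal cells are both mouse cells and both contribute RNA, and in bulk samples a change in the number of cells of a type cannot be told apart from a change in RNA per cell. In the control groups named here Irgm1 was again the leading member per length, at 16.5 ± 3.5 TPM (SD, n = 6) in vehicle tumors, 18.1 ± 3.5 (n = 3) in Myc-CaP sgNC tumors and 38.8 ± 16 (n = 3) in B16-BL6 sgNC tumors. Its share of the family's TPM ran from 23.9% to 52.0% in Myc-CaP tumors labelled sgUba1 and from 25.6% to 54.2% in EV tumors. No member passed the adjusted test in any of the 4 tumor comparisons, as given for each.

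B16-BL6 sgUba1 tumors had higher means for all 7 members, but none passed the test, where 0.724% of all genes did. The members' log2 fold changes ran from 0.64 to 1.27 with adjusted p from 0.27 to 0.58, and the unadjusted p was under 0.05 for 1 member, Irgm1. Irgm1 had 103, 71.9, 101 and 61.0 CPM in the sgUba1 tumors and 53.6, 32.9 and 75.6 CPM in the sgNC tumors (0.64 ± 0.26, adjusted p = 0.27). Tgtp1 had 13.8, 6.14, 15.4 and 6.65 CPM against 1.29, 0.723 and 11.2 CPM (1.27 ± 0.75, adjusted p = 0.43). The groups overlapped for each member, since sgNC replicate 4 had the highest value of its group for all 7 members and lay within the sgUba1 range.

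Without sgNC replicate 4, the count called in B16-BL6 tumors became 1, Tgtp1, with a log2 fold change of 3.39 (adjusted p = 0.019). No single immune marker was called, among 11 tested of macrophages and dendritic cells and 5 of T and NK cells. The summed level of 12 macrophage and dendritic cell markers was 230 to 276 CPM in sgUba1 and 141 to 226 CPM in sgNC tumors, and that of 12 T and NK cell markers was 10.1 to 12.5 against 8.47 to 9.91 CPM. All markers of both lists had counts in both groups. Their part in the result was not tested.

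Myc-CaP tumors labelled sgUba1 showed larger differences that did not pass the test either, where 3.04% of genes passed. All 7 log2 fold changes were above 0, from 0.83 to 2.36, with adjusted p from 0.068 to 0.31 and an unadjusted p under 0.05 for 5 members. Tgtp1 ranged from 5.25 over a median of 33.4 to 79.1 CPM in the 7 labelled tumors and had 8.16, 6.44 and 7.96 CPM in the sgNC tumors (2.36 ± 0.64, adjusted p = 0.068). Irgm1 ranged from 21.3 over 41.7 to 56.2 CPM against 24.5, 26.4 and 18.7 CPM (0.83 ± 0.25, adjusted p = 0.088). In both genes 6 of the 7 labelled tumors lay above every sgNC tumor and replicate 2 did not.

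Replicate 2 had the lowest value of its group for all 7 members, and replicate 3 the highest for all but Tgtp1. Igtp had 38.2 CPM in replicate 3 and 3.02 CPM in replicate 2, with the other 5 labelled tumors between 9.59 and 14.1 CPM and the sgNC tumors at 7.81, 3.52 and 2.41 CPM (1.57 ± 0.68, adjusted p = 0.19). Without replicate 2, Irgm1 (0.93, adjusted p = 0.023) and Tgtp1 (2.55, adjusted p = 0.017) were called. DESeq2, run on all 10 tumors, called Irgm1, Irgm2 and Tgtp1 (adjusted p = 0.017, 0.034 and 0.00096).

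With the labelled tumors whose Uba1 RNA was below that of the controls, tumors 1 to 3, the log2 fold changes ran from 0.73 for Irgm1 to 2.06 for Tgtp2 and none passed the test (adjusted p from 0.21 to 0.30). Tgtp1 was then 1.70 ± 0.65 (adjusted p = 0.23). The labelled tumors with more Uba1 RNA, tumors 4 to 7, held 31.1 to 79.1 CPM of Tgtp1, compared with 5.25 to 42.4 CPM in tumors 1 to 3. Both sets of labelled tumors thus held tumors above every sgNC tumor for this gene.

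Some macrophage markers were higher in the labelled tumors. Adgre1 (1.15 ± 0.21, adjusted p = 0.028), Cd68 (0.83 ± 0.16, 0.030) and C1qa (0.82 ± 0.16, 0.030), genes of macrophages, were called among 11 tested markers, where 3.04% of all genes were called. The summed macrophage and dendritic cell markers stood at 464 to 772 CPM against 261 to 525 CPM in sgNC tumors, and the summed T and NK cell markers at 13.8 to 32.7 against 10.7 to 13.7 CPM, with no single T or NK marker called. All markers of both lists had counts in both groups. Their part in the result was not tested.

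Whether the effect of the sgUba1 label differed between the tumor models was tested in 1 fit of the 17 sgRNA tumors. No member passed, where 1.52% of genes did. The differences, B16-BL6 minus Myc-CaP, ran from −1.12 ± 1.07 for Tgtp1 to −0.20 ± 0.39 for Irgm1, with adjusted p from 0.62 to 0.84.

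**Figure D3:**
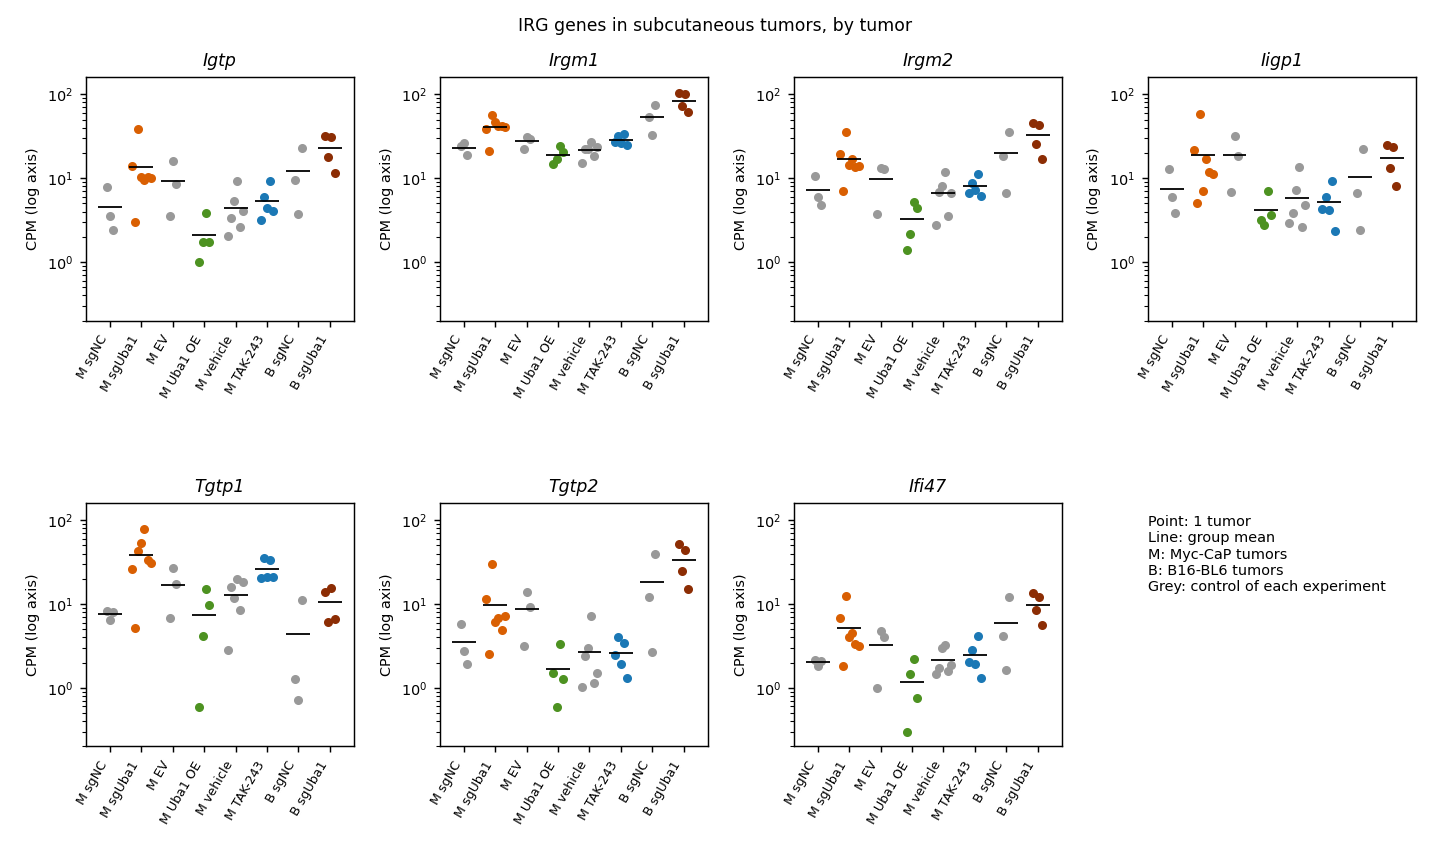
CPM of the 7 IRG genes (log axis, 1 panel per gene) in the 35 tumors by group, with points for tumors, lines for group means, M for Myc-CaP and B for B16-BL6. Values within a group spread widely, for example from 3.02 to 38.2 CPM for Igtp in Myc-CaP tumors labelled sgUba1, and Tgtp1 after TAK-243 stands above every vehicle tumor. The sum of Tgtp1 and Tgtp2, not drawn, overlapped between the TAK-243 and vehicle tumors.

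Uba1 overexpression went with lower means of all 7 members, which again did not pass the test. The share of all genes called was 0.0269%. The log2 fold changes ran from −2.36 to −0.52 with adjusted p from 0.13 to 0.44, and the unadjusted p was under 0.05 for 5 members. Tgtp2 had 1.49, 0.585, 3.34 and 1.28 CPM in Uba1 OE and 3.17, 14.0 and 9.31 CPM in EV tumors (−2.36 ± 0.59, adjusted p = 0.14). Iigp1 had 3.17, 2.73, 7.01 and 3.64 CPM against 6.89, 31.5 and 18.3 CPM (−2.17 ± 0.50, adjusted p = 0.13), and Igtp 0.991, 1.75, 3.83 and 1.71 CPM against 3.50, 15.9 and 8.47 CPM (−2.13 ± 0.55, adjusted p = 0.14).

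In each of these 3 genes 3 of the 4 Uba1 OE tumors lay below all EV tumors, and Uba1 OE replicate 3 overlapped the lowest, EV replicate 1. DESeq2 called the same 3 genes (Igtp, Iigp1 and Tgtp2, with adjusted p = 0.0094, 0.0017 and 0.0068). Irgm1 had the smallest change, at 14.7, 17.2, 24.4 and 20.3 CPM against 22.5, 30.8 and 29.3 CPM (−0.52 ± 0.19, adjusted p = 0.22). Summed T and NK cell markers were 6.15 to 12.0 CPM in Uba1 OE and 17.6 to 24.3 CPM in EV tumors, without overlap, and Gzma and Nkg7 were at 0 in all 4 Uba1 OE tumors. The summed macrophage and dendritic cell markers were 142 to 491 against 368 to 455 CPM. Their part in the result was not tested.

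TAK-243 treatment of mice went with a higher Tgtp1 in tumors and with small estimates for most other members. None of the 7 passed, where 0.145% of genes did, and the log2 fold changes ran from −0.17 to 1.03, with 5 of them above 0 and an unadjusted p under 0.05 for 2 members. Tgtp1 was the 1 member whose groups did not overlap, as was the case for 0.884% of genes in this direction. It had 20.4, 35.7, 21.3, 33.4 and 20.7 CPM with TAK-243, and ranged from 2.85 over a median of 13.9 to 19.9 CPM in the 6 vehicle tumors (1.03 ± 0.38, adjusted p = 0.24). This separation depends on how reads were shared with Tgtp2. Tgtp1 took 73.4% of the counts of both genes in vehicle replicate 4, the highest vehicle tumor, and 89.2% to 94.1% in TAK-243 tumors. With Tgtp1 and Tgtp2 summed the groups overlapped, and the log2 fold change was 0.89 ± 0.37 (adjusted p = 0.29). Irgm1 had 27.1, 31.7, 26.5, 33.6 and 25.1 CPM with TAK-243 and 15.2 to 27.2 CPM, with a median of 22.3, in vehicle tumors (0.42 ± 0.14, adjusted p = 0.20), so the groups overlapped.

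Igtp, Irgm2, Iigp1, Tgtp2 and Ifi47 overlapped between TAK-243 and vehicle tumors, with estimates from −0.17 ± 0.44 for Iigp1 to 0.26 ± 0.38 for Igtp. Vehicle replicate 4 had the highest value of its group for all 7 members, and it was also the tumor with the most Ifng counts, 6 where the other 34 tumors had 0 to 2. Itgam, a gene of myeloid cells, was called higher with TAK-243 (0.82 ± 0.14, adjusted p = 0.049), and the summed macrophage and dendritic cell markers were 237 to 523 against 219 to 309 CPM. Summed T and NK cell markers were 9.49 to 15.7 against 9.76 to 16.3 CPM. All markers of both lists had counts in both groups, and their part in the result was not tested.

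The split of counts between Tgtp1 and Tgtp2 differed between the tumor models. Tgtp1 took 9.70% to 22.0% of the counts of both genes in B16-BL6 sgNC tumors and 19.7% to 30.4% in B16-BL6 sgUba1 tumors. In the Myc-CaP tumors its share was 58.3% to 94.1%, apart from 28.6% in Uba1 OE replicate 1, which held 21 counts of both genes together. In Myc-CaP cells with IFN-γ it was 73.0% to 81.3%. The B16-BL6 and Myc-CaP tumors grew in mice of different strains, and strain, line and sex cannot be told apart in this split.

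Within Myc-CaP the Tgtp1 share also varied by experiment. It was 89.2% to 94.1% in TAK-243 tumors and 73.4% to 92.5% in vehicle tumors. In the tumors labelled sgUba1 it was 58.6% to 69.8% in tumors 1 to 3 and 81.3% to 92.0% in tumors 4 to 7. Since the coding sequences are near-identical, the sum of both genes was tested as well, and with it 0 members were again called in each tumor comparison.

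**Figure D4:**
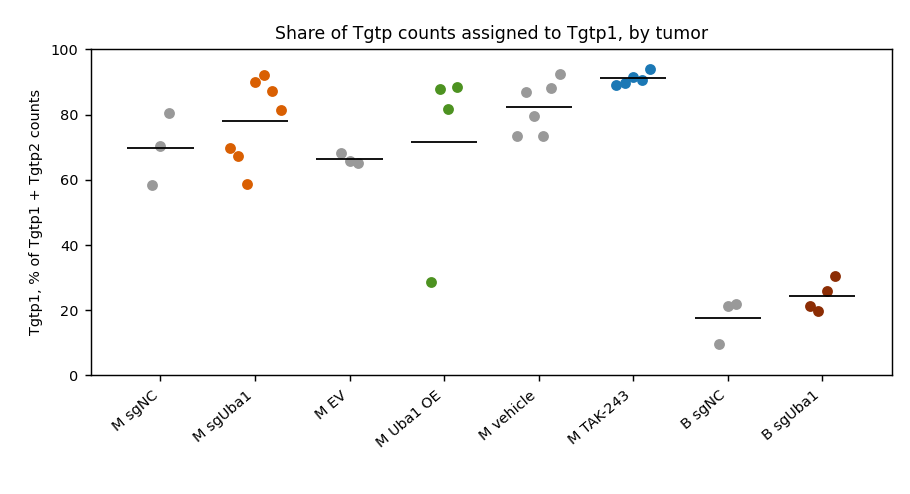
Share of the summed Tgtp1 and Tgtp2 counts assigned to Tgtp1 (vertical axis, percent) in the 35 tumors by group, with points for tumors, lines for group means, M for Myc-CaP and B for B16-BL6. All 7 B16-BL6 tumors lie at or under 30.4%, and all Myc-CaP tumors but 1 lie at or above 58.3%.

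Across the series the members moved together to differing degrees. Over the 16 group means of log2 CPM, the correlation of a member with the mean of the other 6 was highest for Irgm2 (Pearson r = 0.991) and lowest for Irgm1 (r = 0.801). Over the 35 tumors, taken as deviations from their group means, it was again highest for Irgm2 (r = 0.963) and lowest for Tgtp1 (r = 0.746). These values describe points that share libraries, depth and experiments, and carry no test.

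The genes most like the family mean by the same measure were Gbp2 (r = 0.984), Gbp3 (0.981), Psmb9 (0.971), Tap1 (0.970) and Gbp7 (0.964) over the 16 group means, out of 15004 genes compared. Over the 35 tumors they included Gbp7 (0.944), Gbp5 (0.903), Gbp3 (0.900) and Gbp4 (0.897), out of 15347. In no tumor comparison was a guanylate-binding protein called, with medians of their log2 fold changes of 0.93 in B16-BL6 sgUba1, 1.21 in Myc-CaP sgUba1, −1.64 in Uba1 OE and 0.12 in TAK-243 tumors, beside 0.74, 1.36, −1.57 and 0.26 for the IRG members.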

How the data were processed

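The authors deposited expected counts and TPM per gene for each library. The submitters' processing notes name kallisto and mm10, without versions, and the annotation is not given in the sources used here. The expected counts are estimates, of which 31.9% were not whole, and they were rounded before use, where the test design had been written for counts. The TPM deposited are scaled per length and served for levels between genes and as an alternative (limma 3.58.1 on log2(TPM + 1) and log2(TPM + 0.1)). The study's methods name a ribosomal RNA depletion kit where the labels describe poly-A selection.

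Differences were tested in R 4.3.3 with edgeR 4.0.16 (quasi-likelihood test, TMM factors, filterByExpr, Benjamini-Hochberg adjustment over all genes tested, threshold 0.05). Tumor experiments were fitted alone and the 8 cell libraries of an experiment together. CPM use TMM factors within an experiment. With all libraries of a group at 0, folds are bounds against a floor of 3 counts per library, and with 1 to 3 counts they are ratios with a 95% exact counting interval. Standard errors are on the log2 scale. DESeq2 1.42.0 and limma-voom were further alternatives. The counts summed to 8651963 to 38032284 per library, which sets the precision of low members.

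The members and gene lists were chosen with earlier results of these data known. Groups came from the labels. All 7 members were named in each comparison, and of other lists at most 3 called genes per direction, by the largest log2 fold change. Genes of like pattern were the 5 with the highest Pearson r among genes with a mean CPM of at least 1. Among 75 pairs of replicates none held identical values. RefSeq promoter sequences were matched by symbol. No protein sequences were used here. Some genes of the lists are not reported here.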

Additional observations from a re-analysis of the deposited data

Results flagged for a closer look

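In the 7 Myc-CaP tumors labelled sgUba1, replicate 2 stood far below the others for Irgm1 (21.3 CPM, the next lowest being 38.1) and for Tgtp1 (5.25 CPM, the next lowest being 26.3), by Dixon's test at the 95% level. Of 35 combinations of member and group tested, chance flags about 1 in 20.

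Differences between responses that passed the interaction or difference test were seen in cultured cells. Irgm1 responded to IFN-γ more in sgUba1 than in sgNC cells, by 1.09 on the log2 scale, and more in control than in sgNC cells, by 0.65. Tgtp1 responded more with TAK-243 than without it, by 3.20. With IFN-γ, the effect of sgUba1 exceeded that of TAK-243 by 4.20 for Igtp, 2.30 for Irgm1, 3.06 for Irgm2, 3.40 for Iigp1, 1.62 for Tgtp1, 1.81 for Tgtp2 and 4.01 for Ifi47 on the log2 scale.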

How the results depend on the processing

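RLE size factors and no filter on low counts changed no count of members called in any of the 17 comparisons. DESeq2 called 3 members in Myc-CaP sgUba1 tumors and 3 in Uba1 OE tumors, where edgeR called 0, and 5 for TAK-243 with IFN-γ, as did log2(TPM + 0.1), where edgeR called 7. It gave no adjusted p for at least 1 member in 7 comparisons. On log2(TPM + 1), 4 members were called for IFN-γ in sgNC cells, 1 for sgUba1 without IFN-γ, 4 for the sgUba1 by IFN-γ interaction (Irgm1 not among them), 0 for the TAK-243 by IFN-γ interaction and 7 for the IFN-γ effect in control minus sgNC cells. On log2(TPM + 0.1), the last 3 counts were 0, 0 and 4. With only the 4 libraries compared, 4 members were called for IFN-γ in sgNC cells and 2 for sgUba1 without IFN-γ. With Tgtp1 and Tgtp2 summed, the count for the TAK-243 by IFN-γ interaction was 2. The summed gene passed and was counted under both names there, so no further member was called. The cause of the other changes was not tested.

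Some estimates that had not passed the test changed sign. Tgtp2 in TAK-243 tumors became 0.18 with limma-voom, 0.12 on log2(TPM + 1), 0.25 on log2(TPM + 0.1), 0.89 summed with Tgtp1 and 0.068 with the replicate block. The model difference became 0.11, 0.026 and 0.13 for Iigp1, 0.29, 0.35 and 0.31 for Tgtp2 and 0.029, 0.019 and 0.00758 for Ifi47 with limma-voom, log2(TPM + 1) and log2(TPM + 0.1), and 0.15 for Tgtp1 with limma-voom. On log2(TPM + 1) and log2(TPM + 0.1), Tgtp1 became 1.5 and 1.23 in the sgUba1 by IFN-γ interaction and 1.45 and 0.36 in control minus sgNC cells.

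Leaving out 1 library at a time gave 0 to 1 members called in B16-BL6 sgUba1 tumors, 0 to 2 in Myc-CaP sgUba1 tumors, 2 to 4 for sgUba1 without IFN-γ and 1 to 2 for the TAK-243 by IFN-γ interaction. In TAK-243 tumors the estimates ran from −0.027 to 0.61 for Igtp, −0.48 to 0.26 for Iigp1, −0.25 to 0.52 for Tgtp2 and −0.085 to 0.36 for Ifi47. The model difference ran from −1.30 to 0.21 for Igtp, −0.47 to 0.13 for Irgm1, −0.99 to 0.14 for Irgm2, −1.23 to 0.61 for Iigp1, −1.63 to 1.01 for Tgtp1, −1.20 to 0.71 for Tgtp2 and −1.09 to 0.41 for Ifi47. In cells, Tgtp1 ran from −0.59 to 0.17 in the sgUba1 by IFN-γ interaction, Igtp from −0.29 to 5.67 and Irgm2 from −1.61 to 0.48 under TAK-243 without IFN-γ, and Irgm2 from −1.04 to 1.05 in the TAK-243 by IFN-γ interaction. A lone cell library left in a group was assumed to vary like the other groups.

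The labels link samples across groups by a replicate number only, and the main fits did not pair them. In no experiment did every same-numbered pair have a correlation of deviations over 0.1 (r from −0.34 to 0.51 over all pairs). This rule cannot exclude a batch shared by replicate number, since r ran from −0.059 to 0.35 in the sgRNA cells. The replicate block changed no count of members called in the 16 comparisons where it could be fitted. Members at 0 to 3 counts allow bounds or wide ratios only.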
